A study of Oryctolagus cuniculus with 17 samples.

Results

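The vascular tone genes described here are 10 genes of the nitric oxide, cGMP and endothelin pathways, namely NOS3, GUCY1A1, GUCY1B1, PRKG1, NPR1, PDE5A, EDN1, ECE1, EDNRA and EDNRB. They were picked by their human gene symbol out of the 13827 entries of a lung RNA-seq count table, each symbol being carried by 1 entry. All 10 passed the filter on low counts that left 13142 genes for testing.

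The lungs came from New Zealand White rabbit pups delivered preterm, on gestation day 28, kept in incubators and fed a milk replacer. Normoxia pups (NT) breathed 21% oxygen and hyperoxia pups (HT) breathed 95% oxygen, and total lung homogenate, labelled as right lung, was collected on postnatal day 3, 5 or 7. The groups are named by exposure and day. NT3, NT5, NT7, HT3 and HT7 had 3 samples each and HT5 had 2, so that 17 libraries of poly(A) RNA were compared. Every pup was preterm, and no term-born group was used here. Hyperoxia in the newborn rabbit is used as a model of bronchopulmonary dysplasia.

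Library totals lay between 13123731 and 18111086 counts when each locus was counted once. Lung identity was checked with 4 alveolar type 2 genes (SFTPC, SFTPB, SFTPA1 and ABCA3), whose summed level was 11300 to 30800 CPM over the 17 libraries. Levels are given as CPM, read counts scaled to a common library size with TMM factors, and differences as log2 fold change (log2FC) of hyperoxia against normoxia with the standard error (SE). A gene was called when edgeR's quasi-likelihood test gave a Benjamini-Hochberg adjusted p under 0.05 over all genes tested. CPM was not divided by transcript length, so levels are compared between samples and never between genes.

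In the pulmonary circulation, endothelial nitric oxide synthase makes nitric oxide, which diffuses into smooth muscle and pericytes and switches on soluble guanylate cyclase. The cGMP formed there activates a protein kinase that relaxes the muscle, until phosphodiesterase 5 breaks cGMP down, and natriuretic peptide receptor 1 is a further source of cGMP. Endothelin 1, cut from its precursor by endothelin converting enzyme, contracts smooth muscle through receptor A, while receptor B on endothelium clears endothelin and releases nitric oxide. For the comparison of arms, NOS3, GUCY1A1, GUCY1B1, PRKG1 and NPR1 formed the dilator arm and EDN1, ECE1, EDNRA and PDE5A, which removes cGMP, formed the constrictor arm. EDNRB was placed in neither arm because it serves both.

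The question was how each arm compared between hyperoxia and normoxia on matched days. By day 7, all 5 dilator genes, 3 of the 4 constrictor genes and EDNRB were lower in hyperoxia, whereas EDN1, the endothelin ligand, was not called in either direction. Called lower were 0 of 10 genes on day 3, 8 on day 5 and 9 on day 7, and no member was called higher on any day. Day 5 rested on 2 hyperoxia libraries, and without HT5 replicate 2 the 8 called became 2, while without HT5 replicate 1 EDN1 was called higher (edgeR adjusted p = 0.00659). The share of all tested genes called lower was 0.517% on day 3, 15.4% on day 5 and 23.7% on day 7, and the share called in either direction was 1.03%, 31.3% and 47.4%. Members had a median log2FC of -0.13, -0.86 and -1.30 on days 3, 5 and 7, beside 0, -0.02 and -0.01 over all genes tested. In whole-lung RNA, fewer cells of a type and less RNA per cell cannot be told apart.

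**Figure D1:**
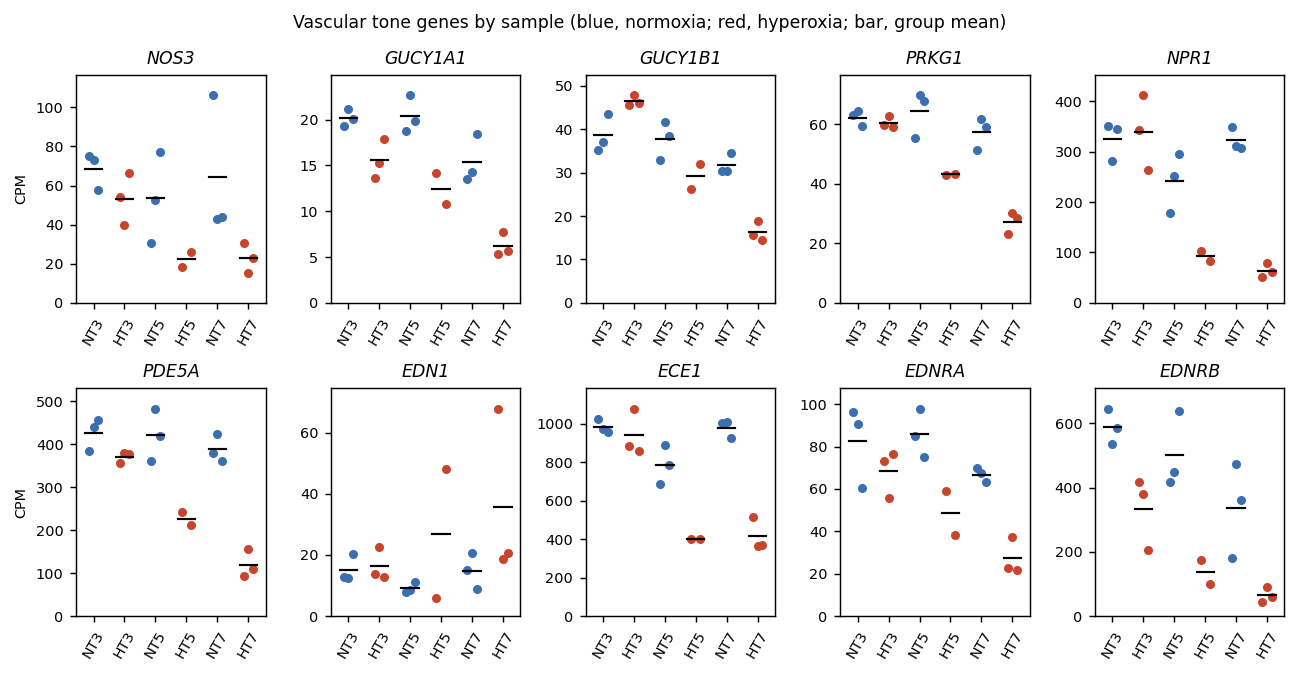
CPM of each of the 10 genes in the 17 libraries, by group, on linear axes that start at 0; each point is 1 library (blue, normoxia; red, hyperoxia) and each bar a group mean. All HT7 libraries lie below all NT7 libraries except for EDN1, where 1 HT5 and 1 HT7 library stand at 47.9 and 67.8 CPM.

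NOS3, the endothelial nitric oxide synthase (chromosome 13, 12419744 to 12438882, plus strand; all coordinates are those of the count table, build OryCun2.0), varied widely within normoxia. Its level was 74.9, 73.0 and 57.7 CPM in NT3 and 54.2, 39.6 and 66.3 CPM in HT3. On day 5 it was 30.5, 52.8 and 77.3 CPM in NT5 and 18.5 and 26.2 CPM in HT5. On day 7 it was 106, 42.8 and 43.7 CPM in NT7 and 30.5, 15.1 and 22.9 CPM in HT7. The groups overlapped on day 3 and were apart on days 5 and 7, and NT7 replicate 1 was the highest library of all. NOS3 fell on day 5 (log2FC -1.26, SE 0.44, edgeR quasi-likelihood adjusted p = 0.042) and on day 7 (log2FC -1.49, SE 0.39, adjusted p = 0.00541). The day 5 call held in 1 of the 5 fits that each left out 1 library, whereas on day 7 it held in 6 of 6. Without NT7 replicate 1 the day 7 log2FC was -0.92 with an adjusted p of 0.043 by the same test.

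The soluble guanylate cyclase is a heterodimer whose main subunits are encoded side by side on the minus strand of chromosome 15, GUCY1B1 at 8232697 to 8285406 and GUCY1A1 at 8311406 to 8374977, with a gap of 26 kb. GUCY1A1, the alpha 1 subunit, was at 19.3, 21.2 and 20.1 CPM in NT3 and at 13.6, 15.3 and 17.9 CPM in HT3. It was at 18.7, 22.7 and 19.8 CPM in NT5 and at 14.2 and 10.8 CPM in HT5. It was at 13.5, 14.3 and 18.4 CPM in NT7 and at 5.31, 7.74 and 5.69 CPM in HT7. Hyperoxia libraries were the lower ones on every day, without overlap. The test called the difference on day 5 (log2FC -0.71, SE 0.20, edgeR adjusted p = 0.0157) and on day 7 (log2FC -1.31, SE 0.18, adjusted p = 6.1e-05), but not on day 3 (log2FC -0.37, adjusted p = 0.329). The day 5 call held in 3 of the 5 fits that each left out 1 library and was lost without HT5 replicate 2 (adjusted p = 0.188) and without NT5 replicate 2 (adjusted p = 0.056).

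GUCY1B1, the beta 1 subunit, behaved differently on day 3. Its level was 35.2, 36.9 and 43.6 CPM in NT3 and 45.5, 47.8 and 46.0 CPM in HT3, so that the hyperoxia libraries were the higher ones without overlap, although the test did not call it (log2FC 0.27, 95% interval -0.01 to 0.55, edgeR adjusted p = 0.352). On day 5 it was 32.8, 41.6 and 38.5 CPM in NT5 and 26.2 and 32.1 CPM in HT5 (log2FC -0.37, adjusted p = 0.0739). On day 7 it was 30.3, 30.4 and 34.6 CPM in NT7 and 15.6, 18.8 and 14.4 CPM in HT7, and it fell by 0.96 on the log2 scale (SE 0.14, adjusted p = 6.12e-05). The order of the groups thus turned between day 3 and day 7.

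The ratio of GUCY1A1 to GUCY1B1 counts was followed as a description of the balance between the cyclase subunits. It was 0.547, 0.574 and 0.461 in NT3 and 0.299, 0.320 and 0.388 in HT3, every hyperoxia library lying under every normoxia library. On day 5 it was 0.515 to 0.570 in NT5, and the HT5 libraries were split at 0.541 and 0.336. On day 7 it was 0.447 to 0.533 in NT7 and 0.341 to 0.412 in HT7, again without overlap. Fewer alpha 1 reads per beta 1 read were therefore counted in hyperoxia on days 3 and 7, and no test was run on this ratio.

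PRKG1, the cGMP-dependent protein kinase that relaxes smooth muscle (chromosome 18, 33221515 to 34577042, minus strand), had the smallest SE of the 10 genes on each day. It was at 63.1, 64.4 and 59.3 CPM in NT3 and at 59.6, 62.8 and 58.9 CPM in HT3, which overlapped. In NT5 it was at 55.6, 69.8 and 67.8 CPM, above the 43.1 and 43.5 CPM of HT5. In NT7 it was at 51.5, 61.9 and 59.1 CPM, and in HT7 at 23.0, 30.1 and 28.5 CPM. PRKG1 fell by 0.57 on day 5 (SE 0.13, edgeR adjusted p = 0.00488) and by 1.08 on day 7 (SE 0.12, adjusted p = 8.28e-06), both on the log2 scale. Without HT5 replicate 2 the day 5 call was lost (adjusted p = 0.0509).

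NPR1, the receptor guanylate cyclase for natriuretic peptides (chromosome 13, 38786488 to 38798694, minus strand), had the lowest day 7 fold change of the dilator arm. It was at 351, 281 and 345 CPM in NT3 and at 342, 412 and 263 CPM in HT3, where the groups overlapped. It was at 179, 252 and 295 CPM in NT5 against 102 and 83.3 CPM in HT5. It was at 348, 311 and 308 CPM in NT7 against 51.1, 79.3 and 61.3 CPM in HT7. Normoxia kept a like level on days 3 and 7, and every HT5 and HT7 library lay below all normoxia libraries of any day. NPR1 fell 2.61-fold on day 5 (log2FC -1.38, SE 0.24, edgeR adjusted p = 0.000852) and 5.04-fold on day 7 (log2FC -2.33, SE 0.21, adjusted p = 2.63e-06). Both calls held in every fit that left out 1 library.

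PDE5A, the phosphodiesterase that breaks down cGMP (chromosome 15, 94658451 to 94813754, minus strand), moved with the dilator genes. It was at 385, 441 and 457 CPM in NT3 and at 356, 381 and 379 CPM in HT3, which did not overlap but were not called (log2FC -0.20, edgeR adjusted p = 0.584). It was at 362, 483 and 420.2 CPM in NT5 against 242 and 212 CPM in HT5. It was at 381, 425 and 362 CPM in NT7 against 93.2, 155 and 109 CPM in HT7. Hyperoxia libraries were lower without overlap on all 3 days. PDE5A fell 1.86-fold on day 5 (log2FC -0.89, SE 0.18, adjusted p = 0.00243) and 3.27-fold on day 7 (log2FC -1.71, SE 0.16, adjusted p = 3.61e-06). Without HT5 replicate 2 the day 5 call was lost (adjusted p = 0.0512). Over the 17 libraries its log2 CPM had a Pearson r of 0.979 with PRKG1, and of 0.692 within groups, a description across libraries that share the exposure.

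EDN1, the endothelin 1 ligand (chromosome 12, 6011333 to 6016458, plus strand), was the only member whose hyperoxia mean lay above normoxia on all days. It was at 12.9, 12.4 and 20.4 CPM in NT3 and at 13.8, 22.8 and 12.8 CPM in HT3. On day 5 the NT5 libraries were at 7.88, 8.72 and 11.1 CPM, and the HT5 libraries at 5.91 and 47.9 CPM, 1 below and 1 above all of NT5. On day 7 the NT7 libraries were at 15.1, 20.6 and 8.97 CPM and the HT7 libraries at 67.8, 18.6 and 20.6 CPM. The groups overlapped on every day, and the spread within HT5 and HT7 was larger than the difference of means. EDN1 was not called on day 3 (log2FC 0.11, edgeR adjusted p = 0.953), day 5 (log2FC 1.55, 95% interval 0.13 to 2.97, adjusted p = 0.0878) or day 7 (log2FC 1.26, 95% interval -0.03 to 2.55, adjusted p = 0.1).

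Single libraries decided the EDN1 values. Without HT5 replicate 2 the day 5 log2FC turned to -0.66 (edgeR adjusted p = 0.58), and without HT5 replicate 1 it was 2.38 and passed the test (adjusted p = 0.00659). Without HT7 replicate 1 the day 7 log2FC was 0.40 (adjusted p = 0.619). Neither a rise nor an unchanged level of EDN1 was therefore established by these libraries.

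ECE1, the endothelin converting enzyme (chromosome 13, 131801551 to 131913573, plus strand), was at 1027, 973.5 and 956 CPM in NT3 and at 882.5, 1079 and 859 CPM in HT3. It was at 688, 889 and 785 CPM in NT5 against 399 and 402 CPM in HT5. It was at 1005, 1007 and 928 CPM in NT7 against 516, 366 and 369.6 CPM in HT7. The day 3 groups overlapped, and the later ones were far apart. ECE1 fell 1.97-fold on day 5 (log2FC -0.98, SE 0.16, edgeR adjusted p = 0.000618) and 2.35-fold on day 7 (log2FC -1.23, SE 0.14, adjusted p = 1.07e-05), in every fit that left out 1 library.

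EDNRA, the contractile endothelin receptor (chromosome 15, 17113617 to 17196501, minus strand), was at 96.1, 90.5 and 60.5 CPM in NT3 and at 73.2, 55.9 and 76.4 CPM in HT3, which overlapped. It was at 84.9, 97.9 and 75.3 CPM in NT5 against 58.9 and 38.3 CPM in HT5. It was at 69.8, 67.3 and 63.1 CPM in NT7 against 22.7, 37.2 and 21.8 CPM in HT7. All hyperoxia libraries of days 5 and 7 were the lower ones. EDNRA fell by 0.83 on day 5 (SE 0.26, edgeR adjusted p = 0.0242) and by 1.29 on day 7 (SE 0.23, adjusted p = 0.000353) on the log2 scale. The day 5 call was lost without HT5 replicate 2 (adjusted p = 0.267) and without NT5 replicate 2 (adjusted p = 0.0767).

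EDNRB, the endothelin receptor of endothelium (chromosome 8, 79700292 to 79724918, minus strand), was at 646, 535 and 585 CPM in NT3 and at 418, 379 and 206 CPM in HT3. It was at 416, 448 and 639.7 CPM in NT5 against 174 and 101 CPM in HT5. It was at 179.8, 473 and 360.1 CPM in NT7 against 43.3, 90.6 and 60.2 CPM in HT7. Hyperoxia was lower without overlap on all 3 days, and NT7 replicate 1 was low for a normoxia library. EDNRB was the only member with an unadjusted p under 0.05 on day 3 (log2FC -0.82, SE 0.35, edgeR adjusted p = 0.284). It fell 3.65-fold on day 5 (log2FC -1.87, SE 0.42, adjusted p = 0.00449) and 5.22-fold on day 7 (log2FC -2.38, SE 0.37, adjusted p = 0.000131). Without HT5 replicate 2 the day 5 call was lost (adjusted p = 0.0866).

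The ratio of EDNRB to EDNRA counts describes the balance of the endothelin receptors. Its mean was 7.43 ± 1.97 (SD, n = 3) in NT3, 5.99 ± 2.17 in NT5 and 5.10 ± 2.28 in NT7. In hyperoxia it was 5.06 ± 2.12 in HT3, 2.95 and 2.64 in the HT5 libraries and 2.37 ± 0.434 in HT7. On day 7 the ranges overlapped, at 2.57 to 7.02 in NT7 and 1.91 to 2.77 in HT7, because of NT7 replicate 1. On day 5 they did not, the NT5 ratios being 4.58 to 8.50. No test was run on this ratio.

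**Figure D2:**
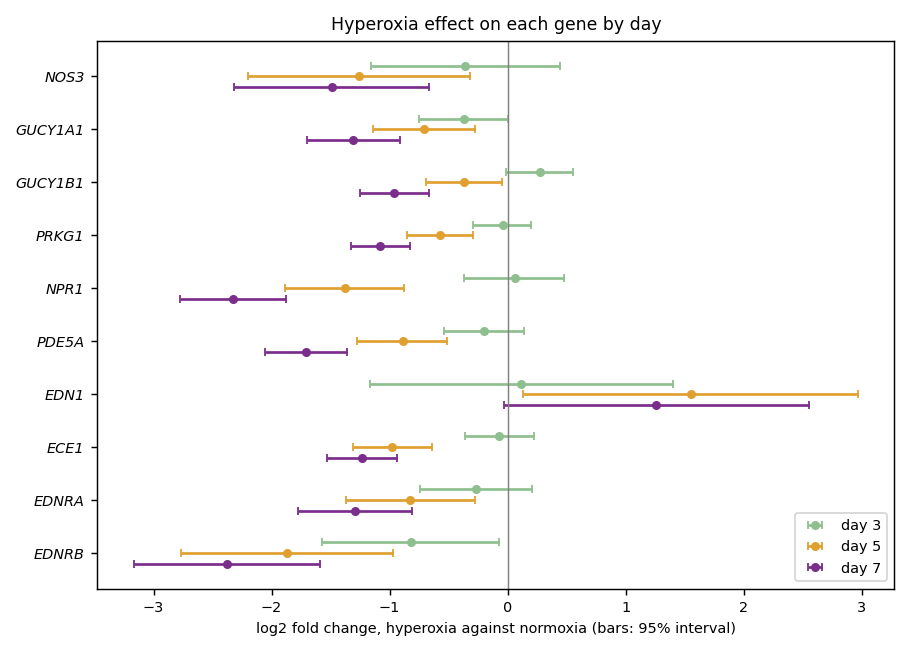
Log2 fold change of hyperoxia against normoxia (horizontal axis) for each gene on days 3, 5 and 7, with the 95% interval of edgeR's quasi-likelihood fit as bars. The day 3 estimates lie near 0 for most genes, the day 7 estimates of 9 genes lie between -2.38 and -0.96, and the EDN1 intervals are the widest.

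On day 3 alone, the members gave no call at all. With edgeR's quasi-likelihood test 0 of 10 passed and 1 had an unadjusted p under 0.05, and with DESeq2 0 of 10 passed as well.  Groups did not overlap for 4 members on day 3, GUCY1A1, PDE5A and EDNRB lower and GUCY1B1 higher, where 26.7% of all genes did not overlap. The same held for 9 members on day 5 (55.7% of all genes) and 9 on day 7 (54.5%).

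The thresholds that the study set for differential expression (adjusted p under 0.01 and a log2FC beyond 2 in either direction) were passed by NPR1 and EDNRB on day 7 (4.59% of all genes), and by no member on day 5 (1.58%) or day 3 (0.0533%). They were passed by NPR1 and EDNRB in HT7 against HT3 as well (3.52%), and by NPR1 in the day 7 minus day 3 effect (1.56%). Both genes were lower in 3 of 3 HT7 libraries. The 2 members still called on day 5 without HT5 replicate 2, at an adjusted p under 0.05, were NPR1 and ECE1.

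Change over days was compared within each exposure. In normoxia, 0 of 10 members were called between day 7 and day 3 (0% of all genes), 2 had an unadjusted p under 0.05 (GUCY1A1, log2FC -0.39, and EDNRB, log2FC -0.80), and DESeq2 called 0. In hyperoxia, 9 members were lower on day 7 than on day 3 by edgeR's test and 0 were higher (22.0% of all genes were lower, 22.3% higher and 44.3% either), from NPR1 (log2FC -2.41) and EDNRB (log2FC -2.37) to PRKG1 (log2FC -1.15), and EDN1 was not called (log2FC 1.11, adjusted p = 0.146). The difference between the day 7 and day 3 hyperoxia effects was itself called for 8 members, all more negative on day 7 (11.0% of all genes; 9.52% were more positive and 20.5% either). Without HT7 replicate 3 or without NT7 replicate 3, 5 members were called. It was not called for NOS3 (log2 difference -1.13, adjusted p = 0.147) or EDN1 (log2 difference 1.15, adjusted p = 0.358). These comparisons use the same HT7 libraries and are not independent of the day 7 contrast.

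The dilator and constrictor arms were then set side by side. For each library the log2 CPM of each gene was centred on its mean over the 17 libraries and averaged over the arm. The dilator mean was 0.36 to 0.42 in HT3 and 0.48 to 0.51 in NT3, then -0.53 and -0.51 in HT5 and -0.01 to 0.52 in NT5. On day 7 it was -1.20 to -1.04 in HT7 and 0.18 to 0.40 in NT7. The constrictor mean was 0.16 to 0.34 in HT3 and 0.31 to 0.35 in NT3, and -0.64 and -0.09 in HT5 beside -0.07 to 0.22 in NT5. On day 7 it was -0.87 to -0.36 in HT7 and -0.02 to 0.39 in NT7. Both arms were lower in every HT5 and HT7 library than in every normoxia library of the same day.

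Hyperoxia minus normoxia, the dilator arm stood at -0.10, -0.84 and -1.42 on days 3, 5 and 7 and the constrictor arm at -0.11, -0.46 and -0.81. Dilator minus constrictor, the hyperoxia difference was 0.01 on day 3, -0.38 on day 5 and -0.61 on day 7. The day 5 value ran from -0.64 without HT5 replicate 1 to -0.12 without HT5 replicate 2, and the day 7 value from -0.75 without NT7 replicate 2 to -0.45 without HT7 replicate 1. This distance between the arms lay in EDN1. With EDN1 left out of the constrictor arm it was 0.06 on day 5 and 0.02 on day 7, close to 0. With PDE5A left out instead, it was -0.92 on day 7. The medians of single-gene log2FC were alike as well, at -0.71 for the dilator and -0.86 for the constrictor arm on day 5 and at -1.31 and -1.26 on day 7. These arm values are descriptions and carry no test.

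**Figure D3:**
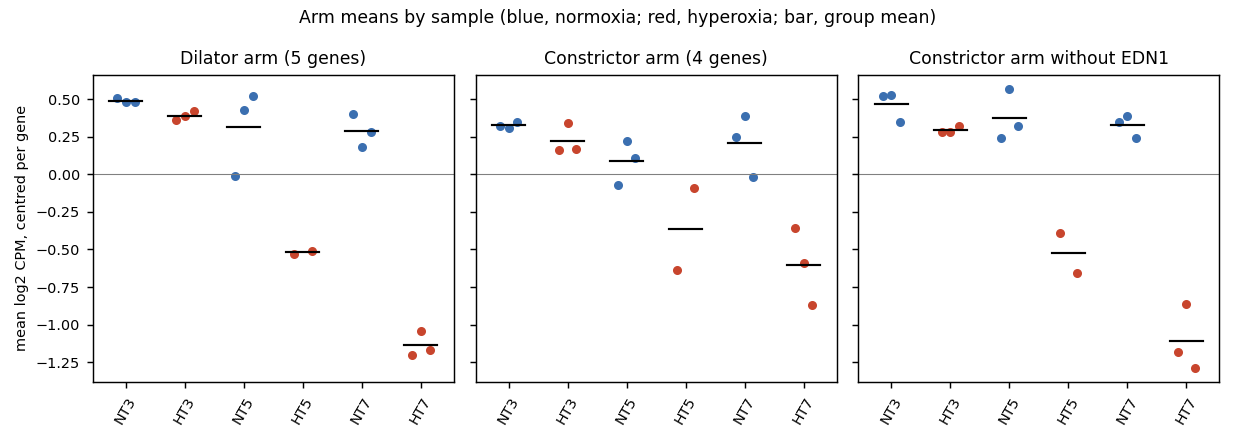
Mean centred log2 CPM over the dilator arm, the constrictor arm and the constrictor arm without EDN1, by group; each point is 1 library (blue, normoxia; red, hyperoxia) and each bar a group mean. HT7 lies at -1.20 to -1.04 in the dilator arm, at -0.87 to -0.36 in the constrictor arm and at -1.29 to -0.86 once EDN1 is left out.

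Markers of vascular and of other cells moved in the same libraries. The summed CPM of 7 tested pan-endothelial markers was 2120 to 2700 in normoxia, 2290 to 2640 in HT3, 1400 in both HT5 libraries and 948 to 1400 in HT7. Of these markers, 5 of 7 fell on day 7 (CDH5, TIE1, TEK, ERG and ROBO4), while PECAM1 and VWF were not called. VWF rose on day 5 (log2FC 1.14, edgeR adjusted p = 0.00747), and on day 3 all its HT3 libraries lay above NT3 without a call (2.14-fold, edgeR adjusted p = 0.056). Of the 7 markers, 1 was called lower and 0 higher on day 3, and 5 were called lower and only VWF higher on day 5. Capillary markers (6 tested, EDNRB not among them) summed to 721 to 1220 CPM in normoxia and 163 to 238 CPM in HT7, with 5 of 6 lower. Their sum was apart on the earlier days as well, at 629 to 753 CPM in HT3 against 1080 to 1220 CPM in NT3 and at 412 and 472 CPM in HT5 against 942 to 1110 CPM in NT5, the days on which EDNRB also lay lower without overlap. Smooth muscle markers (7 tested) summed to 916 to 1350 CPM in normoxia and 590 to 888 CPM in HT7, with 3 lower and 1, DES, higher, and to 1000 to 1220 CPM in NT5 against 569 and 612 CPM in HT5. On day 3 the smooth muscle sum was apart too, at 934 to 1060 CPM in HT3 against 1160 to 1350 CPM in NT3, with 1 marker called lower. Pericyte markers (8 tested) summed to 734 to 1130 CPM in normoxia and 581 to 645 CPM in HT7, with 5 lower and 1, ABCC9, higher, but their sums overlapped on day 5 (845 to 1070 CPM in NT5, 810 and 1370 CPM in HT5). On day 3 the pericyte sums were 837 to 1010 CPM in HT3 and 1020 to 1130 CPM in NT3, and no pericyte marker was called. Among other cells, 4 alveolar type 1 markers, CAV1 among them, summed to 6400 to 7190 CPM in NT7 and 1930 to 2520 CPM in HT7, with 2 of 4 lower. Macrophage markers (5 tested) summed to 1060 to 1250 CPM in NT7 and 1650 to 2290 CPM in HT7, with 1 higher and 1 lower. Neutrophil markers (4 tested) summed to 777 to 947 CPM in NT7 and 842 to 2690 CPM in HT7, with 0 higher and 1 lower. No tested marker of these lists was at 0 in all libraries of a group.

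Each gene's CPM was therefore also expressed as a percent of a marker sum of the cells known to carry it, as a description without a test. NOS3 was 1.66 to 4.68% of the pan-endothelial sum in NT7 and 1.59 to 2.19% in HT7, which overlapped. EDNRB was 24.9 to 50.7% of the capillary sum in NT7 and 20.1 to 38.0% in HT7, which overlapped too. On day 5 EDNRB was apart on that scale, at 24.6 and 36.8% in HT5 against 40.3 to 58.5% in NT5, and on day 3 it overlapped, at 28.1 to 60.3% in HT3 against 47.6 to 59.9% in NT3. Relative to the pan-endothelial sum it was lower without overlap on day 3 (8.85 to 18.3% against 22.6 to 23.9%) and day 5 (7.24 and 12.4% against 17.9 to 30.2%). On day 7 EDNRB overlapped on that scale, at 3.1 to 9.56% in HT7 against 7.93 to 18.3% in NT7.

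Against the same kind of sum, several members lay outside the NT7 range in HT7. NPR1 was 12.1 to 15.4% of the pan-endothelial sum in NT7 and 3.66 to 8.37% in HT7. PDE5A was 37.6 to 41.5% of the smooth muscle sum in NT7 and 10.5 to 26.4% in HT7, and 41.1 to 51.9% of the pericyte sum in NT7 and 16.1 to 25.3% in HT7. ECE1 was 39.1 to 44.4% of the pan-endothelial sum in NT7 and 27.9 to 38.7% in HT7. That HT7 range overlapped NT3 (37 to 41.5%) and NT5 (32.3 to 37%). EDN1 was 0.382 to 0.798% of the pan-endothelial sum in NT7 and 1.56 to 4.86% in HT7. In 2 of these HT7 libraries its own level was 18.6 and 20.6 CPM, beside 8.97 to 20.6 CPM in NT7, while the sum it was divided by was 948 to 1400 CPM in HT7 and 2270 to 2580 CPM in NT7. On day 5 EDN1 overlapped on this scale, at 0.421 and 3.43% in HT5 against 0.349 to 0.521% in NT5. PRKG1 was 5.46 to 6.29% of the smooth muscle sum in NT7 and 2.59 to 5.11% in HT7, which overlapped NT3 (4.38 to 5.44%) and NT5 (4.56 to 6.78%).

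GUCY1A1, GUCY1B1 and EDNRA overlapped between NT7 and HT7 on the smooth muscle scale. GUCY1A1 was 1.26 to 1.96% of that sum in NT7 and 0.597 to 1.31% in HT7, GUCY1B1 2.68 to 3.68% and 1.75 to 3.19%, and EDNRA 5.95 to 7.62% and 2.56 to 6.32%. On the pericyte scale GUCY1A1 and EDNRA did not overlap on day 7, at 1.38 to 2.16% against 0.881 to 1.26% and at 6.51 to 9.52% against 3.37 to 6.06%, whereas GUCY1B1 did, at 2.94 to 4.13% against 2.24 to 3.06%.

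On day 5 the values differed between the marker lists. Relative to smooth muscle markers, HT5 and NT5 overlapped for 3 members, PDE5A at 34.6 and 42.5% against 29.7 to 42.0%, EDNRA at 6.26 and 10.3% against 6.97 to 8.08%, and GUCY1A1 at 1.76 and 2.49% against 1.54 to 1.98%. PRKG1, at 7.10 and 7.57% against 4.56 to 6.78%, and GUCY1B1, at 4.60 and 5.24% against at most 3.85%, were higher in HT5 on that scale. Relative to pericyte markers all 5 were lower in HT5 without overlap, PRKG1 and GUCY1B1 thus in the opposite direction. PDE5A was at 15.4 and 29.9% against 42.9 to 45.9%, PRKG1 at 3.17 and 5.32% against 6.53 to 7.40%, and GUCY1B1 at 2.34 and 3.23% against 3.89 to 4.20%. GUCY1A1 was at 0.786 and 1.75% against 2.12 to 2.22%, and EDNRA at 2.80 and 7.27% against 8.22 to 10.1%. The sums hold genes of which some were not lower, and the part of cell composition in the members' changes was not tested.

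**Figure D4:**
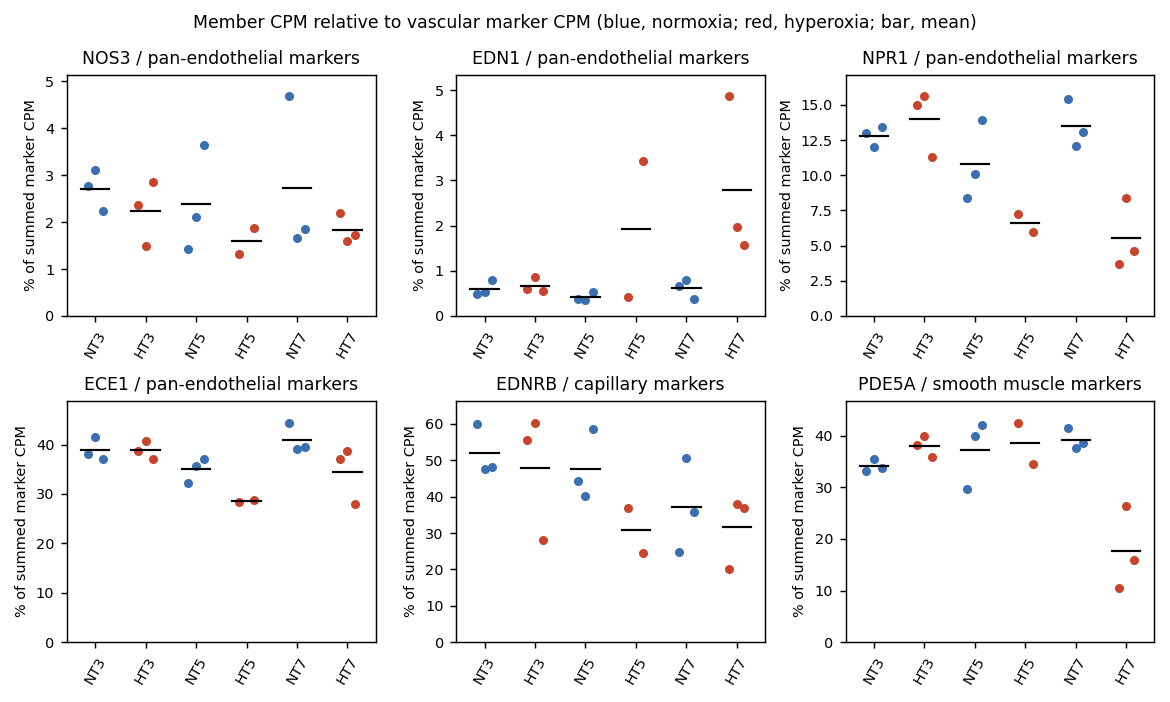
CPM of 6 genes as a percent of the summed CPM of the named marker list, by group, on linear axes that start at 0; each point is 1 library and each bar a group mean. NOS3 and EDNRB overlap between NT7 and HT7, NPR1, ECE1 and PDE5A are lower in HT7, and EDN1 is higher at 1.56 to 4.86% against 0.382 to 0.798%.

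Skeletal muscle genes (4 tested) summed to 303 CPM in HT3 replicate 2 and 275 CPM in HT5 replicate 1, against 2.66 to 38.8 CPM in the other libraries. Without HT3 replicate 2, 0 members were called on day 3, and without HT5 replicate 1, 8 were called on day 5, a different set in which NOS3 was lost (edgeR adjusted p = 0.186) and EDN1 was called higher (adjusted p = 0.00659).

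The genes most alike to single members over the 17 libraries were listed by Pearson r of log2 CPM. EDNRB was most alike to KDR, the endothelial VEGF receptor (r = 0.977), followed by BTBD3 (0.977), AFAP1L2 (0.967), CTNND1 (0.966) and GRIP1 (0.964). NOS3 was most alike to RHOB (0.923), then to the entry named MIR143 and MIR145 (0.909), GIT1 (0.905) and MAGEH1 (0.895). EDN1 had weaker partners, TRMU (0.885), CDC42EP3 (0.861), PPP3CC (0.85), ARRDC3 (0.849) and TMEM115 (0.846). Between members, EDN1 had a negative r with all 9 others, from -0.698 (EDNRA) to -0.189 (NOS3). Within groups the sign turned for ECE1 (0.527), NOS3 (0.319) and GUCY1B1 (0.266). All r values are across libraries that share exposure and day.

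The wider pathways were read from lists of other genes. The shares of all tested genes to set beside the counts of every list were 0.517% higher and 0.517% lower on day 3. They were 15.9% and 15.4% on day 5, and 23.7% and 23.7% on day 7. Of nitric oxide synthesis and supply genes (16 tested), 0 were called on day 3, 5 higher and 4 lower on day 5, and 4 higher and 4 lower on day 7, with a median log2FC of 0.07 on day 7. NOS2, the inducible synthase, fell from 40.8 ± 6.69 CPM (SD, n = 3) in NT7 to 4.51 ± 2.46 CPM in HT7 (log2FC -3.17, SE 0.47, edgeR adjusted p = 9.69e-05). CAV1, the caveolar scaffold that binds endothelial nitric oxide synthase, fell from 1840 ± 245 to 350 ± 99.8 CPM (log2FC -2.40, SE 0.23, adjusted p = 3.55e-06). NOSTRIN, which traffics the endothelial synthase (log2FC -1.40), and ASS1, which supplies arginine (log2FC -0.72), fell as well, though the ASS1 call was lost without HT7 replicate 2 or 3 or NT7 replicate 1. The genes that rose on day 7 were DDAH1, which degrades the synthase inhibitor dimethylarginine (log2FC 2.20), ARG2, an arginase that competes for arginine (log2FC 2.03), SLC7A1, an arginine transporter (log2FC 1.94), and the chaperone gene HSP90AA1 (log2FC 0.54). On day 7 the shares of this list called in each direction, and its median, thus stayed close to those of all genes.

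Among cGMP and natriuretic peptide genes (15 tested), 0 were called on day 3, 1 higher and 5 lower on day 5, and 3 higher and 7 lower on day 7, with a day 7 median log2FC of -0.73. GUCY1A2, the alternative alpha subunit of soluble guanylate cyclase, fell from 155 ± 26.1 CPM in NT7 to 37.1 ± 24.8 CPM in HT7 (log2FC -2.06, SE 0.33, edgeR adjusted p = 0.000154). The natriuretic clearance receptor NPR3 (log2FC -1.95), the cGMP phosphodiesterase PDE9A (log2FC -2.38) and PDE3B (log2FC -1.85) fell too. VASP, a substrate of the cGMP-dependent kinase (log2FC 0.68), PDE1C (log2FC 1.11) and PDE3A (log2FC 0.61) rose. PDE1C rose on day 5 as well, as the 1 higher gene (log2FC 2.25, edgeR adjusted p = 0.00279), past the study's thresholds, and that call was lost without HT5 replicate 2 (adjusted p = 0.113). The day 7 call of PDE1C was lost without HT7 replicate 2 (adjusted p = 0.34), without any single NT7 library, and when each locus was entered once; PDE3A was lost without HT7 replicate 1 or 3 and without NT7 replicate 1 or 3, and VASP without HT7 replicate 1 or NT7 replicate 2.

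In the endothelin list (5 tested), 0 genes were called on day 3, 1 lower on day 5, and 1 higher and 3 lower on day 7, with a day 7 median log2FC of -1.86. EDN3, the endothelin that acts mainly on receptor B, fell from 130 ± 12.7 CPM in NT7 to 20.4 ± 2.64 CPM in HT7 (log2FC -2.67, SE 0.16, edgeR adjusted p = 1.66e-07), and on day 5 by 1.13 on the log2 scale. Of the peptidases on the list, MME (2.06-fold) and KEL (4.50 ± 3.11 CPM in NT7 and 1.12 ± 0.338 CPM in HT7) fell and ECEL1 rose (log2FC 1.66). ECEL1 stood at 24.1 CPM in HT7 replicate 1, without which its log2FC was 0.44 (adjusted p = 0.5), and its call was also lost without any single NT7 library. The KEL call was lost without NT7 replicate 1, and that of MME without HT7 replicate 1 or 3 or NT7 replicate 1.

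Genes that control contraction (9 tested) gave 0 calls on day 3, and 1 higher and 5 lower on both day 5 and day 7, with a day 7 median log2FC of -0.57. The calcium channel gene CACNA1C fell from 314 ± 43.6 CPM in NT7 to 89.9 ± 51.0 CPM in HT7 (log2FC -1.80, SE 0.28, edgeR adjusted p = 0.000144). Lower as well were PLCB1, the phospholipase downstream of endothelin receptors (log2FC -1.59), PPP1R14A, an inhibitor of myosin phosphatase (log2FC -1.58), the myosin kinase gene MYLK (log2FC -1.38) and RHOA (log2FC -0.57).

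Other peptide vasodilators (8 tested) gave 1 higher and 0 lower on day 3, and 1 higher and 5 lower on days 5 and 7, with a day 7 median log2FC of -2.18. The gene that rose was ADM on each day, the vasodilator peptide adrenomedullin. It was at 10.9 to 13.8 CPM in NT3 and 27.5 to 45.0 CPM in HT3, and at 12.0 to 14.1 CPM in NT7 and 41.7 to 50.1 CPM in HT7. Its log2FC was 1.39 (SE 0.18, edgeR adjusted p = 0.00177) on day 3, 1.21 on day 5 and 1.81 on day 7. Its receptor genes moved the other way on day 7, CALCRL from 1320 ± 58.4 to 181 ± 79.5 CPM (log2FC -2.87, SE 0.27, adjusted p = 3.35e-06) and RAMP2 from 487 ± 6.55 to 94.4 ± 13.3 CPM (log2FC -2.37, SE 0.15, adjusted p = 1.66e-07). The calcitonin family co-receptor gene RAMP1 fell too (log2FC -1.99). The apelin receptor APLNR, which is also on the capillary marker list (log2FC -3.76), and the VIP receptor VIPR1 (log2FC -4.75, from 58.1 to 223 CPM in NT7 to 0.666 to 13.0 CPM in HT7) were lower still.

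**Figure D5:**
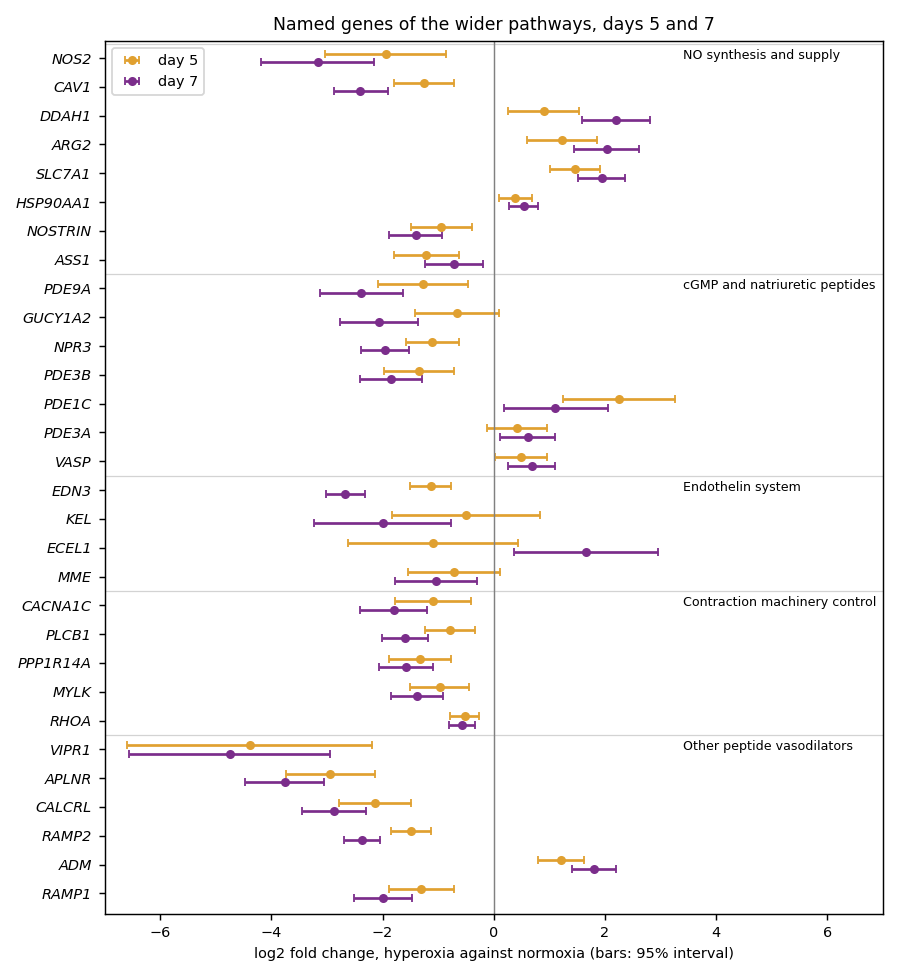
Log2 fold change of hyperoxia against normoxia on days 5 and 7 for the named genes of 5 pathway lists, with 95% intervals of edgeR's fit as bars. Receptor genes such as APLNR (-3.76), CALCRL (-2.87) and RAMP2 (-2.37) lie to the left on day 7, and DDAH1 (2.20), ARG2 (2.03) and ADM (1.81) to the right.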

How the data were processed

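The libraries were made by the study with a stranded poly(A) kit. Per the labels, reads were checked with FastQC and aligned with STAR 2.7.10a to OryCun2.0, and the authors deposited raw counts per gene; the counting program is not given in the sources used here. The table holds 13827 entries over 13313 loci, and genes sharing a locus carry the same counts. Entries without a human symbol (44, with 0.289 to 0.678% of counts) were kept.

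Counts were fitted in edgeR 4.0.16 (R 4.3.3; TMM, filterByExpr, quasi-likelihood test, 6 group means over 17 samples) and adjusted by Benjamini-Hochberg over 13142 genes. DESeq2 1.42.0 was an alternative. The log2FC used a prior count of 0.125 and log2 CPM a prior count of 2. The code was tested on simulated data. The smallest counts behind a member were 86 (EDN1, HT5 replicate 1).

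Samples of a group carry replicate numbers that the labels do not tie to animals or litters, so p-values measure only the spread between these samples. Same-numbered samples deviated together on day 3 (correlations 0.131 to 0.199) and in the 2 pairs of day 5 (0.141 and 0.264). They did not do so throughout on day 7 (0.0695 to 0.174). The tests reported above used no pairing on any day. With the replicate number as a block, the day 5 call of NOS3 was lost (edgeR adjusted p = 0.0658).

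The members and lists were chosen with earlier results of these data known. All 10 members are named. From each pathway list, the up to 4 genes with an adjusted p under 0.05 on any day and the largest absolute log2FC on day 7 were named, among genes with a mean of at least 1 log2 CPM. Genes making up counts of 5 or fewer, such as SLC7A1, HSP90AA1, NOSTRIN, ASS1, RAMP1, ADM, RHOA, VASP, PDE1C and PDE3A, were named after their values were seen. No sequences were read, since no genome of this build was used here. The gene called higher in the contraction list is not reported here.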

Additional observations from a re-analysis of the deposited data

Results flagged for a closer look

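The hyperoxia effect differed between day 7 and day 3 for 8 of the 10 vascular tone genes by the test of that difference in edgeR's quasi-likelihood fit, and for 5 without HT7 replicate 3 or without NT7 replicate 3. The same test called 20.5% of all genes tested, 11.0% with a more negative and 9.52% with a more positive effect on day 7. On the log2 scale, day 7 minus day 3, the difference was -0.93 for GUCY1A1 and -1.23 for GUCY1B1, the cyclase subunits. It was -1.04 for the kinase gene PRKG1, -2.39 for the receptor cyclase NPR1 and -1.51 for the phosphodiesterase PDE5A. In the endothelin system it was -1.16 for ECE1, -1.03 for EDNRA and -1.57 for EDNRB. GUCY1B1 was the one among them whose HT3 libraries all lay above NT3. No rule for outlying libraries was applied to groups of 2 or 3 samples, but each library was left out in turn.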

How the results depend on the processing

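The numbers of members called were 0, 8 and 9 on days 3, 5 and 7, 8 for the day 7 minus day 3 effect and 9 for HT7 against HT3. At an adjusted p under 0.01, 5 members were called on day 5 and 5 for the day 7 minus day 3 effect. At the study's thresholds there were 0 on day 5, 2 on day 7, 1 for the day 7 minus day 3 effect and 2 for HT7 against HT3. With the samples of that day alone, 5 were called on day 5. Leaving out 1 library gave 0 on day 3, 2 to 9 on day 5, 9 on day 7, 5 to 8 for the day 7 minus day 3 effect, 8 or 9 for HT7 against HT3 and 0 for NT7 against NT3. On day 5 the lowest was without HT5 replicate 2, and 5 remained without NT5 replicate 2; for the day 7 minus day 3 effect, 5 were called without HT7 replicate 3 or NT7 replicate 3.

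With the replicate number as a block, 0, 7 and 9 members were called on days 3, 5 and 7, and 7 for the day 7 minus day 3 effect; NOS3 on day 5 was no longer called (adjusted p = 0.0658). A block within each day, added after the data were seen, gave 0, 7 and 9, and 9 for the day 7 minus day 3 effect; GUCY1A1 on day 5 was no longer called (adjusted p = 0.0511). The block changed no other call of a member on days 3, 5 or 7.

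Pathway list genes called numbered 1, 28 and 34 on days 3, 5 and 7. The study's thresholds gave 0, 4 and 11, DESeq2 gave 5 on day 3, and leaving out 1 library gave 1, 10 to 28 and 30 to 36, the lowest on day 5 being without HT5 replicate 2.

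The arm difference (0.01, -0.38 and -0.61) was -0.12 on day 3 with EDNRB added to the dilator arm, and 0.16 on day 3 and -0.30 on day 7 with EDNRB added to the constrictor arm. Without PDE5A it was -0.92 on day 7, and without EDN1, an alternative added after the data were seen, 0.06 on day 5 and 0.02 on day 7. Leaving out 1 library gave -0.04 to 0.07, -0.64 to -0.12 and -0.75 to -0.45 on days 3, 5 and 7.

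Signs turned for values that were not called. Leaving out 1 library, the day 3 log2FC ranged from -0.11 to 0.21 for NPR1 and from -0.19 to 0.38 for EDN1, lowest without HT3 replicate 2, and was -0.04 and -0.01 without NT3 replicate 2. The day 5 log2FC of EDN1 ranged from -0.66 without HT5 replicate 2 to 2.38 without HT5 replicate 1. The cause of these changes was not tested beyond the samples left out.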
